A study of Mus musculus with 6 samples.

Results

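The genes described are 10 members of the NF-kB and IkB families, taken by symbol from the deposited counts: the subunit genes Nfkb1, Nfkb2, Rel, Rela and Relb, the cytoplasmic inhibitors Nfkbia, Nfkbib and Nfkbie, and the nuclear IkB proteins Bcl3 and Nfkbiz. All 10 were found among 24015 gene symbols, and all 10 passed the filter on low counts that left 13284 genes for testing. RNA was sequenced from primary cultures of cancer-associated fibroblasts (CAFs), the matrix-making cells of the tumour stroma. They came from mammary tumours of BalbC mice with the NeuT transgene, an activated rat Her2/neu, which both groups carry. Its promoter and the number of animals, or whether they were pooled, are not given in the sources used here. For 72 hours, 3 samples received nanoparticles loaded with control siRNA and 3 received anti-Stat3 siRNA, in each case at 1 ug/mL. The series set the groups side by side to find genes in CAFs that depend on STAT3, a transcription factor switched on by cytokines of the interleukin 6 family.

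NF-kB is a dimer of Rel-family proteins that waits in the cytoplasm, bound by an IkB protein. Signals from receptors for tumour necrosis factor, interleukin 1 or microbial products activate the IkB kinase complex, which marks IkB for destruction and frees the dimer to enter the nucleus. Nfkb1 and Nfkb2 encode long precursors that themselves hold dimers back until they are processed. Bcl3 and Nfkbiz act in the nucleus, where they bind dimers on DNA and raise or lower the expression of chosen genes. In fibroblasts the pathway is known for driving cytokine and chemokine genes. Its activity is set mainly by protein location, so transcript levels alone do not measure it.

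Total counts ranged from 12998168 to 18683852 per sample. Levels are given in CPM, counts scaled to a common library size with TMM factors, and changes as the log2 ratio of anti-Stat3 to control. The transcript of Stat3, which the siRNA targets, had 220, 359 and 405 CPM in control samples 1 to 3 and 34.7, 81.9 and 78.9 CPM in anti-Stat3 samples 1 to 3. The groups did not overlap, and its log2 change in edgeR was -2.33 ± 0.41 with the group alone (SE, adjusted p = 1.00) and -2.38 ± 0.14 with the pair as a block (adjusted p = 0.0027). Samples of the same number deviated together, so each number is called a pair. Fibroblast markers were high. Summed over 14 genes they had 44204, 94034 and 110652 CPM across the controls, against 50896, 67568 and 83437 CPM across the anti-Stat3 samples. This sum was lowest in pair 1 in both groups. The sum of 17 macrophage markers was 47.3, 1800 and 2489 CPM across the controls, against 42.6, 1731 and 2873 CPM across the anti-Stat3 samples, with C1qa, C1qb, C1qc, Cx3cr1 and Spi1 at 0 in at least 1 sample. The sum of 12 epithelial markers was highest in pair 2 (436 and 439 CPM) and at most 146 CPM elsewhere. The 6 endothelial markers summed to 5.68 to 34.3 CPM, and all 7 lymphocyte markers had at most 3 counts in every sample. The sum of 10 interferon-stimulated genes was 2991, 252 and 261 CPM across the controls, against 3854, 2709 and 3091 CPM across the anti-Stat3 samples, with median pair changes of 0.40, 3.47 and 3.60. Pairs 2 and 3 thus had both the higher macrophage sums and the larger interferon-stimulated differences. In bulk samples fewer cells of a type and less RNA per cell cannot be told apart.

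NF-kB genes are known to be controlled in part by NF-kB itself, through kB sites in their promoters. RefSeq promoters (GRCm38.p6, from 250 bases before to 50 after a listed start) were at hand for 7 of the 10 genes: Nfkb2 (3 listed starts), Rel, Rela, Bcl3, Nfkbia, Nfkbib and Nfkbie. The kB consensus was searched on both strands and found for 5 of these 7 genes. Counted by promoter, as Nfkb2 has 3 (2 of which overlap and share a match), it was in 7 of 9, against 4.51% of all 32851 promoters of the same length. A looser form (GGG, any 5 bases, CC), which contains every match of the consensus, was in 8 of 9 member promoters and in 50.8% of all promoters. TTCNNNGAA, the letters of a STAT site, was in 1 of 9, the first of Nfkb2, against 8.3% of all promoters. The matches to the kB consensus nearest the listed start are shown with 10 bases on each side, 5′ to 3′ on the strand of the gene, and the match is in capitals.
Nfkbia, chr12:55492657-55492686, minus strand: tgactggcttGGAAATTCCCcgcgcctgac
Nfkb2, first listed start, chr19:46304716-46304745, plus strand: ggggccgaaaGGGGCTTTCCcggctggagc
Rel, chr11:23771041-23771070, minus strand: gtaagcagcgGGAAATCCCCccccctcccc
Nfkbie, chr17:45555584-45555613, plus strand: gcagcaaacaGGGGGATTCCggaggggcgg
Bcl3, chr7:19822734-19822763, minus strand: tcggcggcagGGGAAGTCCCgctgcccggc
In Rel the match overlaps another that begins 1 base earlier. The Bcl3 match begins at base 2 after the listed start. Its 250 bases before that start (chr7:19822756-19823005, minus strand, 67.6% G or C) are shown, and capitals mark the looser form. No TTCNNNGAA was found in them or in the 50 bases after, as in every other member promoter but the first of Nfkb2.
Bcl3 promoter: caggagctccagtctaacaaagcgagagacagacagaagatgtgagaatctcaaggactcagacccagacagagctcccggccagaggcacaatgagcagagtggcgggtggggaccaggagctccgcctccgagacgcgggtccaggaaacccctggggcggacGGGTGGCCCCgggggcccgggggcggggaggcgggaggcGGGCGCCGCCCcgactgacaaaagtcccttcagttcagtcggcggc
A match is a description of the letters and not a bound site, and a missing match says only that these letters are not in this window. The reads were mapped to another build (mm9), so these coordinates belong to the promoter sequences alone.

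Per length, the inhibitor Nfkbia, the subunit Rela and the nuclear protein Nfkbiz had the highest control levels. Levels per length are RPKM, the CPM divided by the exon length in kilobases in GENCODE M21. Nfkbia had 27.4 ± 21.1 RPKM, Rela 26.5 ± 3.67 and Nfkbiz 25.1 ± 12.8 (SD, n = 3). Nfkb2 (14.8 ± 2.79), Bcl3 (12.2 ± 7.0), Nfkb1 (8.54 ± 2.91), Nfkbib (8.27 ± 2.33), Relb (5.50 ± 1.91) and Nfkbie (4.33 ± 0.74) followed, and Rel was lowest at 0.62 ± 0.096 RPKM. Of the 9 neighbouring steps in this order, those from Nfkbib to Relb and from Nfkbie to Rel exceeded the larger of the SDs of their 2 genes, and the other 7 did not. Exon lengths join all annotated exons, and that of Nfkb1 is 12061 bases, which lowers its value if shorter transcripts prevail.

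**Figure D1:**
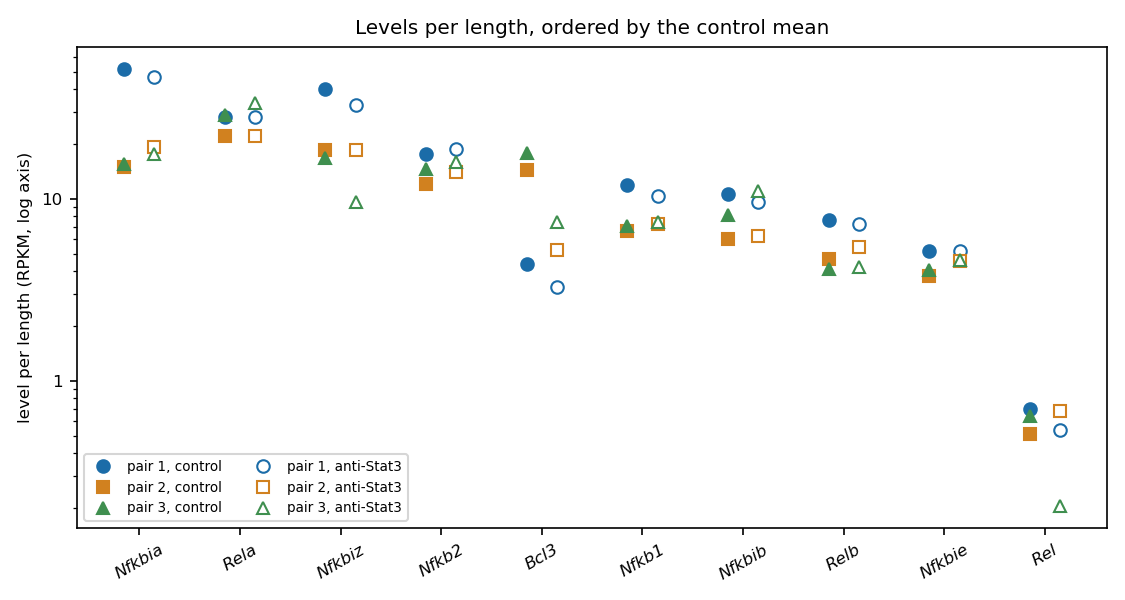
Level per length (RPKM, log axis) of each gene, ordered by the control mean, with 1 point per sample: filled for control siRNA, open for anti-Stat3 siRNA, coloured by pair. Rel lies below 1 RPKM in every sample, and Nfkbia and Nfkbiz are highest in pair 1 in both groups.

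The groups overlapped in the make-up of the subunit pool. Rela, the main transactivating subunit, made up 42.8%, 48.3% and 52.2% of the summed RPKM of the 5 subunits in the controls and 43.2%, 44.8% and 54.8% after anti-Stat3 siRNA. Nfkb2 held 25.9% to 28.9% and Rel at most 1.38% in all 6 samples. The 3 cytoplasmic inhibitors together stood at 102%, 53.4% and 50.1% of the subunit sum in the controls and at 94.0%, 60.3% and 54.2% after anti-Stat3 siRNA. Pair 1 was highest in both groups, and the groups overlapped.

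Bcl3 was the only one of the 10 members with a call in a fit to all 6 samples, and it was lower after anti-Stat3 siRNA in every pair. Bcl3, first known as an oncogene, is an IkB protein that joins p50 or p52 dimers on DNA and can turn them into activators. It had 10.9, 35.6 and 44.2 CPM in control samples 1 to 3 and 8.15, 13.0 and 18.4 CPM in anti-Stat3 samples 1 to 3. Control sample 1 was low and fell among the anti-Stat3 samples, so the groups overlapped, while controls 2 and 3 lay above all others. Its anti-Stat3 level was 75.1%, 36.7% and 41.8% of the control level in pairs 1, 2 and 3. The 3 pair changes were -0.41, -1.45 and -1.26, with a mean of -1.04 ± 0.55 (SD, n = 3 pairs).

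The call of Bcl3 depended on the fit. In edgeR's quasi-likelihood test with the group alone its log2 change was -1.20 ± 0.55 (SE) and it did not pass a Benjamini-Hochberg adjusted p of 0.05 (unadjusted p = 0.069, adjusted p = 1.00). In edgeR with the pair as a block it was -1.08 ± 0.20 (SE), at an unadjusted p of 8.2e-04 (adjusted p = 0.16). DESeq2 with that block called Bcl3 lower, by -1.06 ± 0.24 (SE, adjusted p = 0.0014), 1 of 10 members where 0.798% of all genes were called lower. The limma-voom interval with the block ran from -1.58 to -0.71 (95%, adjusted p = 0.11), and this fit called 0.0602% of all genes. DESeq2 with the group alone did not call it (adjusted p = 1.00), at 0.129% of all genes called. Without pair 1 both blocked tools called it (edgeR -1.36, adjusted p = 1.0e-04; DESeq2 -1.36, 7.0e-06), where 2.18% and 1.17% of genes were called lower (5.2% and 3.19% either way). Without pair 2 or pair 3 neither blocked tool called it (edgeR adjusted p = 0.57 and 1.00, at 0.0225% and 0% of genes called; DESeq2 adjusted p = 0.89 and 0.92, at 0.121% and 0.147%). The log2 change was negative in all 20 alternatives, from -1.60 to -0.82. The fibroblast marker sum, macrophage markers and interferon-stimulated genes also set pair 1 apart, and their part in the Bcl3 values was not tested.

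**Figure D2:**
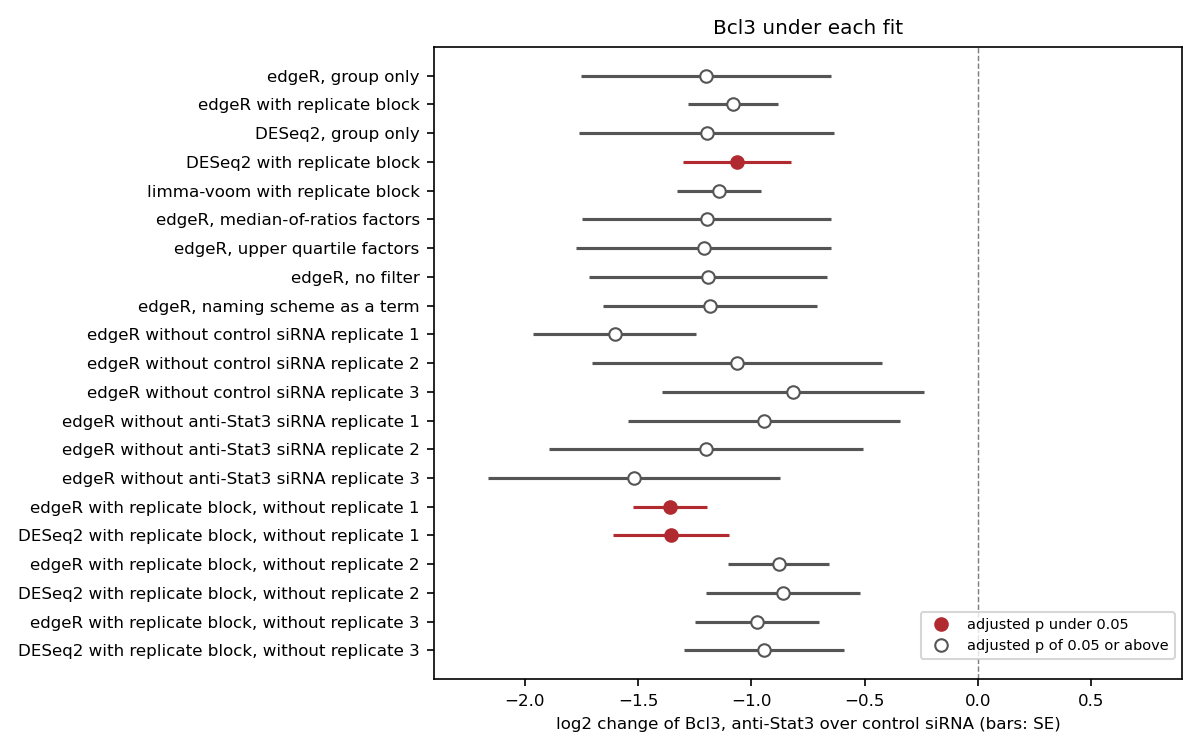
Log2 change of Bcl3 (anti-Stat3 over control siRNA) with its SE under the main fit at the top and each of the 20 alternatives, filled red where the adjusted p was under 0.05. Every point lies below 0, from -1.60 to -0.82, and 3 are filled: blocked DESeq2, and both blocked fits without pair 1.

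Nfkbiz encodes IkB zeta, a nuclear inducer of secondary inflammatory genes that include Il6 and Lcn2. Its levels were 200.4, 93.3 and 84.7 CPM across the controls, against 163.9, 93.6 and 48.1 CPM across the anti-Stat3 samples. Both samples of pair 1 were high, anti-Stat3 sample 3 was lowest, and pair 2 was level. The pair changes were -0.29, 0.0046 and -0.81. Nfkbiz missed the threshold in group-only edgeR (-0.31 ± 0.52, SE, adjusted p = 1.00) and in blocked edgeR (-0.36 ± 0.16, adjusted p = 0.47), and in blocked DESeq2 (unadjusted p = 0.0499, adjusted p = 0.61). Its 95% limma-voom interval with the block was -0.74 to 0.0020.

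Of the nuclear pair Bcl3 and Nfkbiz, Bcl3 made up the smaller share after anti-Stat3 siRNA in each pair. It held 9.93%, 43.6% and 51.4% of their summed RPKM in the controls and 9.16%, 22.0% and 43.7% after anti-Stat3 siRNA. The share was low in both samples of pair 1, and the groups overlapped. This share was not tested.

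Among the subunits, Rela and Nfkb1 stayed close to the control level within each pair. Rela, which encodes p65, had 87.0, 68.4 and 88.8 CPM across the controls, against 86.6, 68.5 and 103.3 CPM across the anti-Stat3 samples. Nfkb1, the gene of p105 and p50, had 143.4, 80.2 and 85.3 CPM across the controls, against 124.9, 87.6 and 90.2 CPM across the anti-Stat3 samples. The groups overlapped for both, and pair 1 was highest for Nfkb1 in either group. Their 95% limma-voom intervals with the block were -0.17 to 0.31 for Rela and -0.25 to 0.26 for Nfkb1.

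The subunits of the non-canonical branch, which works through processing of p100 and the partner RelB, were also near their control levels. Nfkb2, the gene of p100 and p52, had 80.8, 55.3 and 67.2 CPM across the controls, against 86.3, 64.4 and 72.8 CPM across the anti-Stat3 samples. It was higher in all 3 pairs, by 0.09, 0.22 and 0.12, but did not pass (blocked edgeR 0.14 ± 0.10, SE, adjusted p = 0.65). Relb had 29.8, 18.2 and 16.1 CPM across the controls, against 28.3, 21.1 and 16.3 CPM across the anti-Stat3 samples. Its 95% limma-voom interval was -0.22 to 0.33, and that of Nfkb2 was -0.086 to 0.37. Nfkb2 shares 299 exon bases with Psd on the opposite strand in GENCODE M21 (76 to 115 counts per sample), and the sources used here do not say whether counting used the strand.

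Rel, the c-Rel subunit known mainly from lymphoid and myeloid cells, was the weakest member. It had 5.21, 3.81 and 4.80 CPM across the controls, against 4.01, 5.12 and 1.53 CPM across the anti-Stat3 samples, from 20 to 80 counts. Anti-Stat3 sample 3, with the 20 counts, was low and the other 5 samples lay between 3.81 and 5.21 CPM. Its pair changes of -0.37, 0.41 and -1.57 had no common sign. It did not pass in blocked edgeR (-0.43 ± 0.36, SE, adjusted p = 0.71), and without pair 3 the change was 0.03. Its 95% interval, -1.18 to 0.45, was the widest of the 10. The macrophage marker sum was higher in pairs 2 and 3 than in pair 1, and its part in the Rel values was not tested.

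None of the cytoplasmic inhibitors passed in any fit run. Nfkbia, which encodes IkB alpha and is itself induced by NF-kB as a brake, had 83.5, 24.0 and 25.1 CPM across the controls, against 74.8, 30.8 and 28.5 CPM across the anti-Stat3 samples. Both samples of pair 1 stood far above the other 4. Nfkbia in pair 1 was 3.48 and 3.33 times the level of pairs 2 and 3 in the controls, and 2.43 and 2.63 times after anti-Stat3 siRNA. Its pair changes were -0.16, 0.36 and 0.18, with a 95% limma-voom interval of -0.18 to 0.42.

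Nfkbib, which encodes IkB beta, had 23.1, 13.0 and 17.7 CPM across the controls, against 20.9, 13.6 and 23.9 CPM across the anti-Stat3 samples. Nfkbie, which encodes IkB epsilon, had 15.8, 11.5 and 12.4 CPM across the controls, against 15.7, 13.9 and 14.0 CPM across the anti-Stat3 samples. The groups overlapped for both. The 95% intervals were -0.22 to 0.45 for Nfkbib and -0.16 to 0.44 for Nfkbie. Nfkbib shares 42 exon bases with Sirt2 on the opposite strand (832 to 1174 counts per sample), whose reads cannot be told apart from its own if counting ignored the strand. On the opposite strand Bcl3 also shares 161 exon bases with Gm16175, Nfkb2 531 with AC114539.1 and Nfkbib 314 with Ccer2, and these 3 genes were not analysed here.

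**Figure D3:**
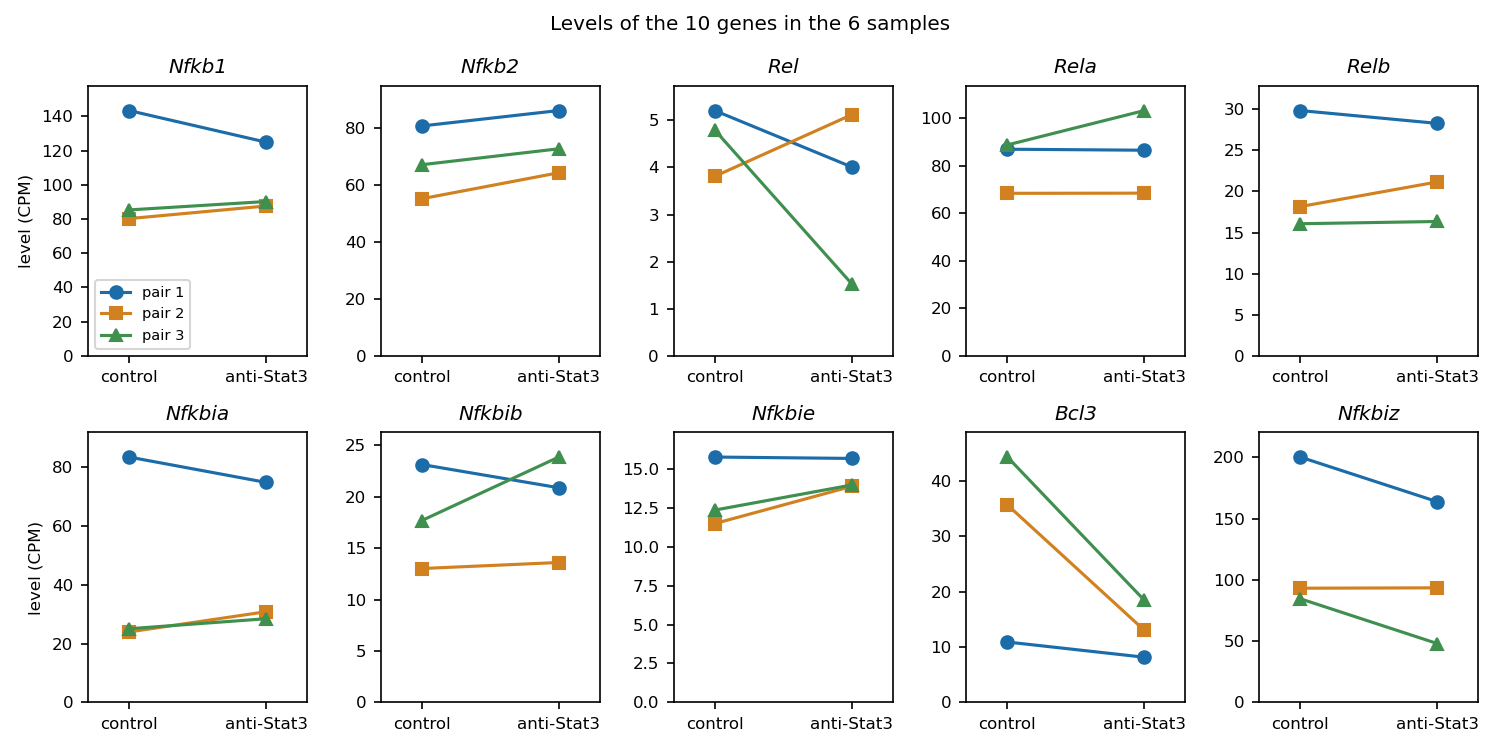
Level (CPM, each axis from 0) of each gene in the 6 samples, with a line from the control to the anti-Stat3 sample of each pair. The lines of Bcl3 slope down in all 3 pairs, those of Nfkbia are far higher in pair 1 than in pairs 2 and 3, and Rel and Nfkbiz are lowest in anti-Stat3 sample 3.

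Across the members, 2 of 10 moved the same way in all 3 pairs, Bcl3 lower (16.4% of all genes) and Nfkb2 higher (17.3%), against 33.7% of all genes tested for either direction. For 0 of 10 did the groups not overlap, against 4.67% of all genes. The count called was 0 of 10 in edgeR with the group alone (0% of all genes, and 0 members at an unadjusted p under 0.05, against 1.77% of all genes) and 0 of 10 in blocked edgeR (0.0602% of all genes, and 1 member at an unadjusted p under 0.05, against 10.8%). It was 1 of 10 in blocked DESeq2, which called 1.69% of all genes, and 2 members had an unadjusted p under 0.05 there, against 8.05%. The median member changed by 0.063 in blocked edgeR, where the median of all genes was -0.0053. A p that misses the threshold does not show that the levels were equal. The intervals above give, gene by gene, the changes left possible under the blocked limma-voom fit, which takes the numbers as pairs.

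**Figure D4:**
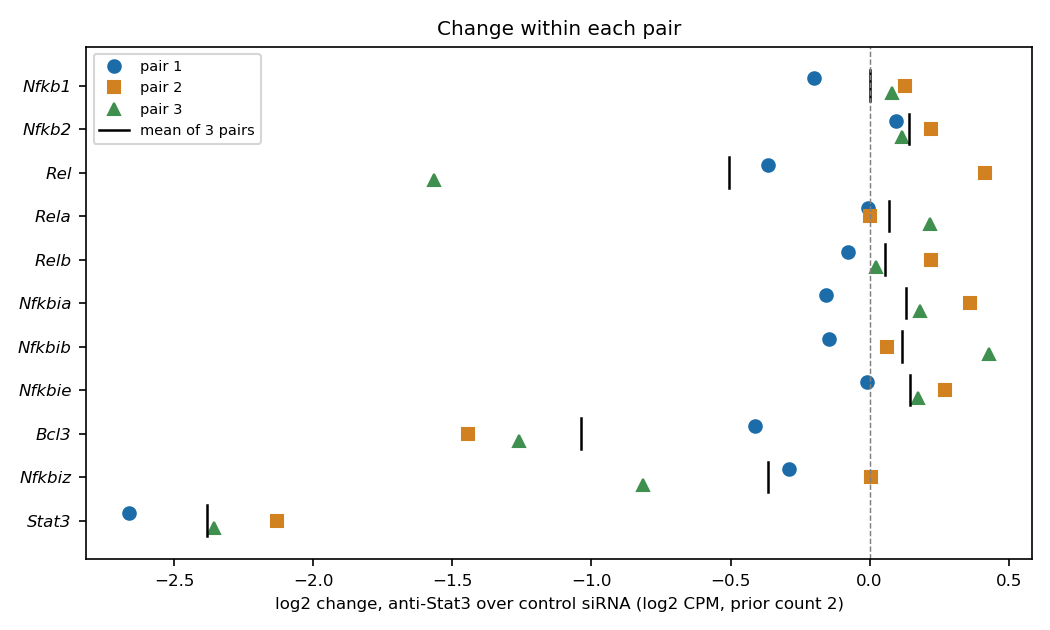
Log2 change (anti-Stat3 over control siRNA) of each gene in pairs 1, 2 and 3, with the mean of the 3 pairs as a bar and Stat3 as the targeted gene. Bcl3 is left of 0 in every pair, Rel and Nfkbiz are furthest left in pair 3, and the other 7 members lie between -0.20 and 0.43.

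Most members differed between pairs. In a test of the pair term in blocked edgeR, chosen after the data were seen, 8 of 10 differed between pairs, against 41.5% of all genes tested. Rel (adjusted p = 0.48) and Nfkbie (adjusted p = 0.21) did not pass. The DESeq2 test of that term passed 7 of 10, without Rela (adjusted p = 0.058), against 37.5% of all genes. Nfkbia had an adjusted p of 4.7e-04 in edgeR and Nfkbiz of 0.0029, both higher in pair 1. Bcl3 (adjusted p = 0.0061) ran the other way: control sample 1 had 0.31 and 0.25 times the level of controls 2 and 3. The sources used here do not give what a pair number shares, such as an animal or a culture.

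By the smallest root mean square difference of the 6 centred log2 CPM values, among 11912 other genes whose log2 CPM averaged 1 or more, the genes most like Bcl3 were Pdk1 (0.20), Il4ra (0.21) and Mgarp (0.23). The median gene differed from Bcl3 by 0.92. Pdk1, a kinase that restrains pyruvate dehydrogenase, had 20.4, 51.9 and 65.1 CPM across the controls, against 12.2, 19.2 and 38.4 CPM across the anti-Stat3 samples. Il4ra, a receptor chain for interleukins 4 and 13, had 210, 1034 and 1111 CPM across the controls, against 172, 350 and 414 CPM across the anti-Stat3 samples. Mgarp had 6.70, 19.8 and 23.7 CPM across the controls, against 5.52, 7.88 and 16.0 CPM across the anti-Stat3 samples. All 3 were low in control sample 1 and highest in controls 2 and 3, as Bcl3 was. They were chosen for likeness to Bcl3 in these samples, so this shared pattern follows from the choice and is no separate result.

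Of 11 receptors that feed into NF-kB, 11 were tested and 0 passed in edgeR with the group alone or with the block (1 and 3 had an unadjusted p under 0.05, against 1.77% and 10.8% of all genes). Blocked DESeq2 called 1 lower, Il1r1, and 1 higher, Tlr3, where 0.798% and 0.891% of all genes were called lower and higher. The list's median was -0.037 in blocked edgeR, beside -0.0053 for all genes. Il1r1, the signalling receptor of interleukin 1, had 118, 179.8 and 292 CPM across the controls, against 104, 83.1 and 125 CPM across the anti-Stat3 samples, and fell in blocked DESeq2 by 0.84 on the log2 scale (SE 0.21, adjusted p = 0.0084). Its pair changes of -0.18, -1.11 and -1.22 were small in pair 1, as those of Bcl3 were. Tlr3, a sensor of double-stranded RNA that is itself induced by interferon, had 49.6, 26.0 and 12.6 CPM across the controls, against 61.8, 66.1 and 38.9 CPM across the anti-Stat3 samples (1.09 ± 0.25, SE, adjusted p = 0.0019). Both calls were lost without pair 2 or pair 3, where blocked DESeq2 called 0 receptors and only 0.121% and 0.147% of all genes. Il1rap, the partner chain of Il1r1, was lower in all 3 pairs (-0.43 ± 0.16 in blocked DESeq2, SE) and Cd40, a receptor of the non-canonical branch, had 0.70 ± 0.31, and neither passed (adjusted p = 0.20 and 0.40). Without pair 1 blocked edgeR called 3 receptors, where 5.2% of all genes were called, with Cd40 at 1.19 (adjusted p = 0.020). Blocked DESeq2 without pair 1 called 2 receptors, at 3.19% of all genes, and Cd40 was not among them (adjusted p = 0.31).

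None of the 28 adaptors and kinases passed in edgeR with the group alone, blocked edgeR or blocked DESeq2, which called 0%, 0.0602% and 1.69% of all genes. In each of these fits 0 of the 28 had an unadjusted p under 0.05, against 1.77%, 10.8% and 8.05% of all genes. The list holds the IkB kinase subunits Chuk, Ikbkb and Ikbkg, and its median was -0.023 in blocked edgeR. The smallest p-values in blocked DESeq2 were of Rnf31 (0.30 ± 0.18, SE) and Rbck1 (0.25 ± 0.16), subunits of the linear ubiquitin ligase, Map3k14 (-0.31 ± 0.19), the NF-kB inducing kinase, and Traf5 (0.25 ± 0.20), an adaptor of the tumour necrosis factor receptor family. The 4 adjusted p-values in DESeq2 ranged from 0.84 to 0.99. Among 18 negative regulators 0 passed in those fits, at the shares of all genes given above, with a median of 0.042 in blocked edgeR. In edgeR with the group alone, blocked edgeR and blocked DESeq2, 0, 2 and 1 had an unadjusted p under 0.05. The shares of all genes were 1.77%, 10.8% and 8.05%. Irak3, an inhibitory kinase-like protein of the Toll-like receptor pathway, was lower in all 3 pairs (-0.43 ± 0.19 in blocked DESeq2, SE, adjusted p = 0.37). Itch, a ubiquitin ligase, had -0.27 ± 0.15, while Pdlim2, which promotes the loss of nuclear p65, had 0.30 ± 0.16 and N4bp1 0.24 ± 0.14 (SE).

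Known NF-kB target genes moved both ways. Of 34 on the list, 31 were tested. In blocked DESeq2 6 fell (Il6, Lcn2, Ier3, Cxcl1, C3 and Sod2) and 1 rose (Cxcl10), where 0.798% of all genes fell and 0.891% rose. Cxcl10 had 57.2, 1.27 and 1.08 CPM across the controls, against 76.9, 152.7 and 49.6 CPM across the anti-Stat3 samples (4.72 ± 1.41, SE, adjusted p = 0.049). Its pair changes were 0.43, 6.77 and 5.37, and it is also among the interferon-stimulated genes summed above. For 2 tested targets, Irf1 and Vcam1, every anti-Stat3 sample lay above every control. For 1, Sod2, every anti-Stat3 sample lay below, and groups did not overlap for 4.67% of all genes. In edgeR 0 passed with the group alone or with the block (2 and 15 had an unadjusted p under 0.05, against 1.77% and 10.8% of all genes). The list's median was -0.033 in blocked edgeR. Its pair medians were -0.17, 0.45 and -0.076, so pair 2 differed in sign from the others. The count and its direction depended on the pairs. Blocked DESeq2 called 6 higher and 5 lower without pair 1 (3.19% of all genes called), and blocked edgeR then called 7 higher and 6 lower (5.2%). Without pair 2 blocked DESeq2 called 3, all lower (0.121% of all genes), and without pair 3 it called 1, Il6, lower (0.147%). Many of these genes are also STAT3 or interferon targets, and the lists were drawn up with earlier results of these data known.

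Il6 had 525, 29.4 and 26.0 CPM across the controls, against 265, 13.7 and 8.98 CPM across the anti-Stat3 samples (blocked DESeq2 -1.18 ± 0.17, SE, adjusted p = 1.5e-09). Lcn2, the iron-scavenging lipocalin 2 and a known gene of IkB zeta, had 230, 1069 and 29.8 CPM across the controls, against 163.7, 720.1 and 16.4 CPM across the anti-Stat3 samples (-0.62 ± 0.14, SE, adjusted p = 0.0019). Its pair changes were -0.49, -0.57 and -0.85. Lcn2 and the epithelial marker sum were both highest in pair 2, and the part of those markers in the Lcn2 values was not tested. Ier3, an early response gene that affects cell survival, had 297, 93.9 and 59.8 CPM across the controls, against 177, 69.2 and 39.1 CPM across the anti-Stat3 samples (-0.60 ± 0.14, SE, adjusted p = 0.0037). Cxcl1, a chemokine for neutrophils, had 1410, 37.1 and 32.4 CPM across the controls, against 903, 30.6 and 12.5 CPM across the anti-Stat3 samples (-0.75 ± 0.20, SE, adjusted p = 0.022). With each pair left out in turn, blocked DESeq2 called Il6 every time, with adjusted p-values from 2.4e-04 to 2.9e-04. It called Lcn2 only without pair 1 (adjusted p = 0.015, otherwise 0.52 and 0.59) and Cxcl1 only without pair 2 (adjusted p = 0.049, otherwise 0.16 and 1.00). Ier3 lost its call whichever pair was left out (adjusted p = 0.28 to 0.59 in DESeq2). All 4 genes were lower in every pair, and the groups overlapped because the pairs differed so widely in level. They were picked by the smallest p in blocked DESeq2, which favours like changes in every pair. Their shared direction is therefore no separate result. Of the 31 tested targets, 10 were lower in all 3 pairs and 7 higher, against 16.4% and 17.3% of all genes.

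The 34 target genes summed to 18398, 4660 and 4111 CPM across the controls, against 14799, 6179 and 4455 CPM across the anti-Stat3 samples. Abundant genes weigh most in this sum: in control sample 1, Csf1 had 3955 CPM and Ptgs2 3311 CPM. Not every target was highest in pair 1, as Lcn2 was highest in pair 2. Tnfaip2 had 235, 184 and 250 CPM across the controls, against 195, 312 and 478 CPM across the anti-Stat3 samples. The list's median level was 108, 33.2 and 29.9 CPM across the controls, against 96.8, 55.4 and 30.7 CPM across the anti-Stat3 samples. The sum and this median were highest in pair 1, the pair that also had the highest Nfkbia and Nfkbiz and the lowest Bcl3. With 3 pairs this is a description only.

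**Figure D5:**
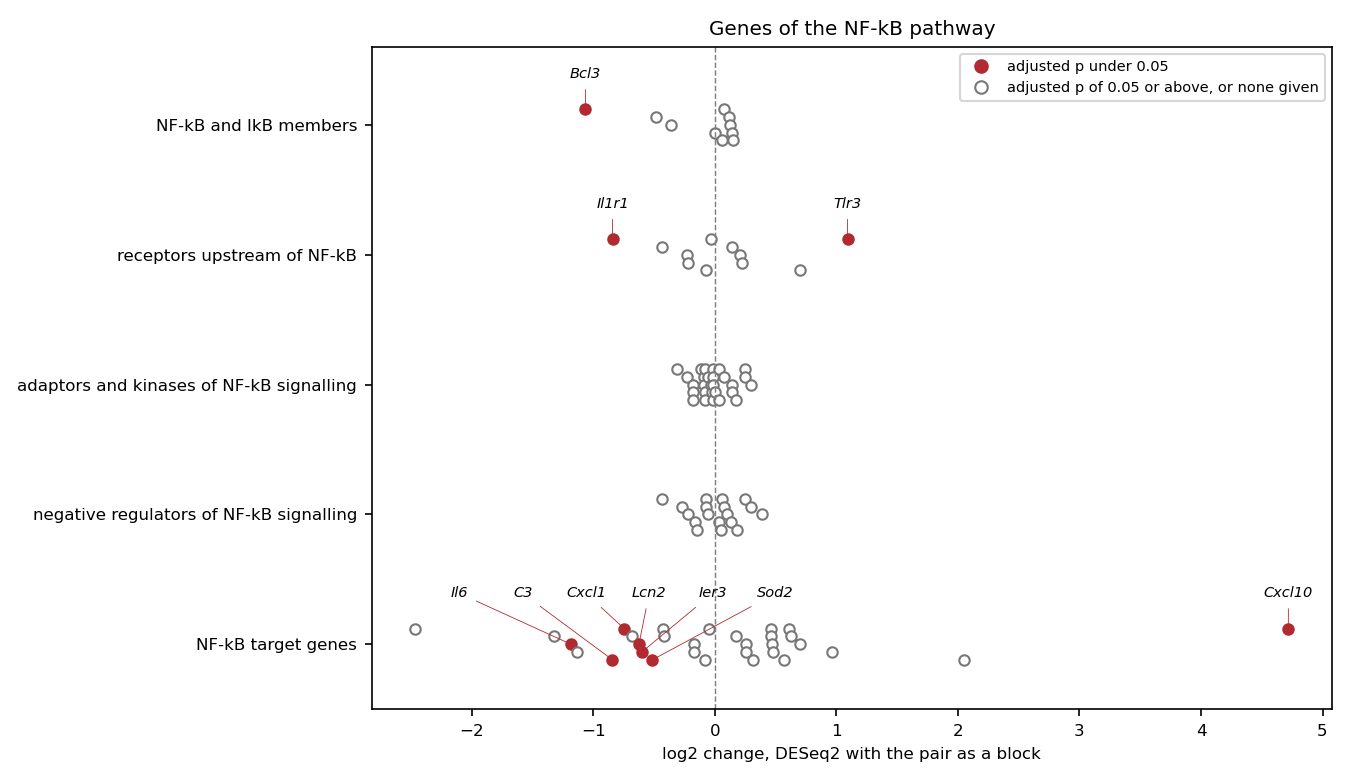
Log2 change in blocked DESeq2 for the 10 members and the tested genes of each pathway list, 1 point per gene, filled red where the adjusted p was under 0.05. Named points are the 10 genes that passed: Bcl3, Il1r1 and Tlr3, and 7 target genes, of which Cxcl10 lies far to the right.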

How the data were processed

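The authors deposited raw counts per gene symbol, whole numbers in 6 columns that were not normalised. TopHat2 2.0.10, HTSeq and the build mm9 are named, per the submitters' processing notes. Columns were matched to samples by group and number. Of per-sample columns, 0 were left unused. The test was edgeR's quasi-likelihood F (edgeR 4.0.16, R 4.3.3) with TMM factors and filterByExpr (minimum count 10, minimum total 15; the group as the only term, Benjamini-Hochberg over 13284 genes, threshold 0.05). The SE is the log2 change over the root of F. DESeq2 1.42.0 and limma-voom (limma 3.58.1), the replicate block, other scaling factors, no filter, the naming scheme of the descriptions as a term, and left-out samples or pairs were alternatives. The naming scheme term sets replicate 3 against replicates 1 and 2, so it does not separate pair 1 from pair 2. Pair changes are differences of log2 CPM with a prior count of 2. The fits were also run on simulated counts with the same change in every pair and the same dispersion for every gene. These data differ from that setting, so the run checks the code and not the calls made here.

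Across genes, deviations from the group means correlated at 0.82 to 0.83 within a replicate number, so the numbers were taken to pair the samples. Samples of different numbers gave -0.16 or less. Deviations cancel out within a group for each gene, so these negative values add no separate evidence. No label states separate cultures or animals, and p-values therefore reflect only the spread of these samples, possibly technical. Depth limits precision: 3 counts equal 0.159 to 0.23 CPM.

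The members and gene lists were chosen with earlier results of these data known. Named are the 10 members, Stat3, up to 4 genes of each pathway list with the smallest p in blocked DESeq2 and the 3 genes most like each member called there. C3, Sod2, Cxcl10, Irf1, Vcam1, Csf1, Ptgs2 and Tnfaip2 were named after their values were seen. The pair term test was added after the data were seen. Exon lengths and overlaps come from GENCODE M21, a later build, matched by symbol.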

Additional observations from a re-analysis of the deposited data

How the results depend on the processing

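Over all genes, the count called was 0 in edgeR with the group alone, with median-of-ratios or upper quartile factors, without a filter and with the naming scheme as a term. It was 8 in edgeR and 8 in limma-voom with the replicate block, 17 in DESeq2 with the group alone and 220 with the replicate block. With 1 sample left out it ranged from 0 to 40 in edgeR with the group alone. With the block and 1 pair left out it ranged from 0 to 703 in edgeR and from 14 to 432 in DESeq2 (432, 14 and 20 without pairs 1, 2 and 3). Members called were 1 in blocked DESeq2, and ranged from 0 to 1 with a pair left out. Receptors called were 2 in blocked DESeq2, and from 0 to 3 with a pair left out in blocked edgeR or from 0 to 2 in DESeq2. Target genes called were 7 in blocked DESeq2 and 1 in DESeq2 with the group alone. They ranged from 0 to 1 with a sample left out, and with a pair left out from 0 to 13 in blocked edgeR and from 1 to 11 in blocked DESeq2. For adaptors and kinases and for negative regulators the count was 0 in every fit run.

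For the 27 single genes tested, 476 of 540 alternative values kept the direction and the side of the threshold. Another 30 kept the direction and passed, and 34 turned sign, each with an adjusted p of at least 0.85. The cause was not tested. The main test called 0 of all genes, so a kept side means only that the gene stayed uncalled. The tally therefore does not measure how stable a change is. Nfkb1 (-0.029 in the main test) was 0.0023 in edgeR, 0.0034 in DESeq2 and 0.0035 in limma-voom with the block. With a sample left out it ranged from -0.21 to 0.28 in edgeR, and with a pair left out from -0.063 to 0.10 in blocked edgeR and from -0.063 to 0.11 in DESeq2. With a sample left out the ranges in edgeR were -0.072 to 0.21 for Rela, -0.19 to 0.35 for Relb, -0.58 to 0.86 for Nfkbia, -0.068 to 0.34 for Nfkbib, -0.83 to 0.19 for Nfkbiz and -0.75 to 2.24 for Cd40. They were -4.10 to 1.78 for Il6, -2.32 to 1.21 for Lcn2, -1.48 to 0.30 for Ier3 and -4.52 to 3.17 for Cxcl1. Leaving out 1 sample splits its pair. When a whole pair was dropped, blocked edgeR gave -0.92 to 0.029 for Rel, -0.0017 to 0.11 for Rela, -0.032 to 0.12 for Relb and -0.045 to 0.25 for Nfkbib. Blocked DESeq2 then gave -0.98 to 0.033 for Rel, -0.031 to 0.13 for Relb and -0.037 to 0.25 for Nfkbib.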
